A study of Homo sapiens with 2 samples.

Results

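The DNAJ genes encode the HSP40 co-chaperones, the J-domain proteins that direct HSP70 chaperones to their clients. They were taken as every probe set annotated with exactly 1 gene symbol made of DNAJA, DNAJB or DNAJC and a number, with or without a final letter. This gave 111 probe sets for 43 genes, out of 41097 single-gene probe sets for 19775 genes. Antisense and divergent transcripts of DNAJ loci were not counted as members, and DNAJC25 was left out because its probe set also carries a readthrough gene. The RNA came from CL1-5, a highly invasive line of human lung adenocarcinoma cells. One culture received 0.11 µM analogue 3, an analogue of the plant compound desmosdumotin C with iodo, tripropyl and methoxy groups, and the other received the solvent DMSO at 0.05 µg/mL. Both were collected after 24 h, and 0.11 µM is the ED50 for toxicity to these cells given by the submitters. The comparison asks which transcripts differed between treated and control cells. Each culture was read on a single array. The differences below therefore rest on 1 array against 1, without an estimate of the spread between cultures, and no test was run. In bulk RNA, fewer cells that express a gene and less of its RNA per cell cannot be told apart.

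J-domain proteins stimulate the ATPase of HSP70, which locks the chaperone onto an unfolded client. Members of the A and B classes usually bind clients themselves, whereas members of the C class share only the J domain and often serve a single site or complex. Each compartment pairs its own J proteins with its own HSP70: HSPA8 and the inducible HSPA1 proteins in the cytosol and nucleus, HSPA5 in the endoplasmic reticulum (ER) and HSPA9 in the mitochondrial matrix. DNAJB1 is a classical target of heat shock factor, and several ER members are induced by the unfolded protein response, the programme that cells start when proteins misfold in the ER.

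Values are intensities in multiples of the array median. A floor of 8 times the median (log2 3) was set, and a gene counted as measured when its brightest probe set reached the floor on at least 1 array. By this rule 31 of the 43 genes were measured, 29 of them at the floor on both arrays, among 8523 measured genes in all. Of the whole array, 26% of probe sets reached the floor with analogue 3 and 26.8% with DMSO. The epithelial keratins KRT18 (457.9 and 460.8) and KRT8 (77.8 and 42.3) and the mesenchymal filament VIM (1868 and 1883) were present on the analogue 3 and DMSO arrays. KRT19, EPCAM and CDH1 were under the floor, as were the mesenchymal markers FN1 (4.17 and 4.89) and CDH2 (6.20 and 5.98). All 6 markers of differentiated lung epithelium, the 4 leukocyte markers that could be read and all fibroblast markers were also under it. The leukocyte marker CD68 had no single-gene probe set and was not read. Of the endothelial markers, PECAM1 was at 15.7 and 11.4, with VWF and CDH5 under the floor.

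On the treated array DNAJB1 and DNAJC9 exceeded the control by at least 2-fold, and DNAJB9 was below it by at least 2-fold. Over all measured genes, 3.74% were at least 2-fold higher and 3.92% at least 2-fold lower, so 2 and 1 of 31 are close to the background. The family median was -0.23 on the log2 scale, against -0.05 for all measured genes, and 23 of 31 members (74.2%) lay below 0, against 55.5% of all measured genes. The family median ran from -0.28 to -0.06 over the alternatives (-0.06 with no floor, -0.14 with a floor of log2 5). After loess normalization 19 of 31 members lay below 0, against 4419 of 8528 measured genes. After quantile normalization 19 of 30 members did, against 4429 of 8499 measured genes. Most differences were small: 24 of 31 members (77.4%) differed by less than 1.5-fold, as did 77.5% of all measured genes. All 10 ER members were lower with analogue 3, while cytosolic and mitochondrial members lay on both sides of 0. Compartments were assigned from general knowledge of each protein. At 1.5-fold, 5 members were lower, against 12.9% of all measured genes (1099 of 8523). By class, the medians were 0.13 for 3 measured DNAJA genes, -0.28 for 6 DNAJB genes and -0.09 for 22 DNAJC genes, and each class held genes on both sides of 0.

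**Figure D1:**
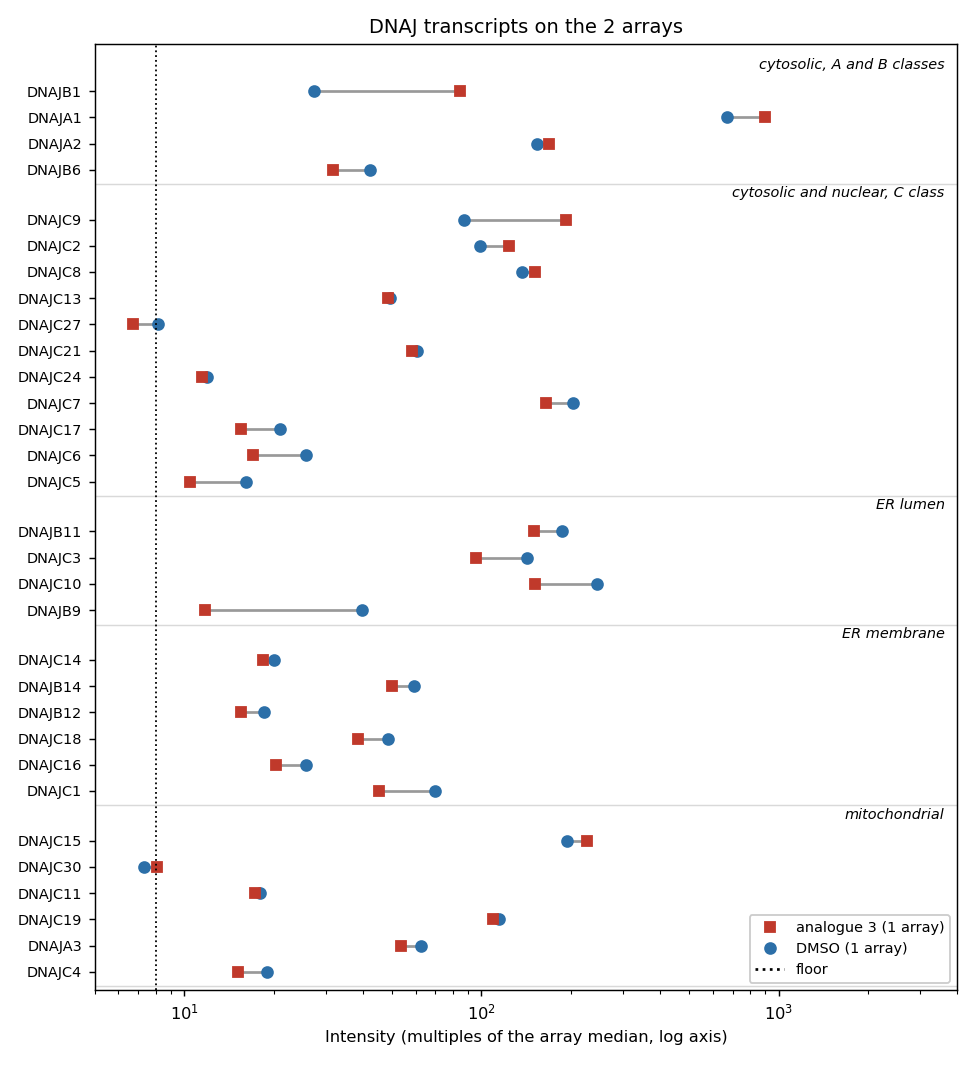
Intensity of each measured DNAJ gene in its brightest probe set (multiples of the array median, log axis), with a square for the analogue 3 array and a circle for the DMSO array, joined by a line and grouped by compartment; the dotted line is the floor of 8. The square lies right of the circle for DNAJB1 (84.4 against 27.3) and DNAJC9 (192.2 against 87.1), and left of it for every ER gene.

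Promoter windows of 4 members are shown, 1 for each motif found in a member, and other members with a match are only named. The 4 were picked with the differences known and include both genes that were 2-fold higher. They therefore do not show that matches go with higher genes. Of the other genes with an E2F site, DNAJC6 was lower with analogue 3 and DNAJC5G was under the floor. RefSeq promoters (GRCh38.p14) were found for 40 DNAJ genes, with 52 starts, and the 250 bases before each start were searched on both strands. These counts include DNAJC25, which is not a member here and had no match. None was found for DNAJC1, DNAJC5B, DNAJC22 and DNAJC24. The heat shock element, bound by heat shock factor, has 3 alternating units in the form searched. This form, whose units are GAA and TTC with NN between them, was in 0.441% of all 35116 promoters and in 1 member promoter, that of DNAJB6. A pair of inverted units (GAANNTTC or TTCNNGAA, which also lies within the longer element) was in 11.6% of all promoters and in 7 of the 52 DNAJ promoters. These belong to DNAJA1, DNAJA4, DNAJB1, DNAJB4, DNAJB6, DNAJB7 and DNAJC15. DNAJB1 has 3 starts, and the window of only 1 of them holds pairs. That window has 2, at 40 to 47 and 70 to 77 bases before the start. Sites of E2F, the factor of S-phase genes (TTTGGCGC, TTTCCCGC or TTTCGCGC) were in 2.32% of all promoters and in 3 member promoters, those of DNAJC9 (8 to 15 bases before the start), DNAJC5G and DNAJC6. The core TGACGTGG of the unfolded protein response element was in 0.612% of all promoters and in 1 member promoter, that of DNAJC10. The ER stress element was in 0.074% and its second form in 0.0513% of all promoters, and neither was in a member window. The unit pair, the second form and the core were chosen after the first search. Capitals mark the matches in the windows below, each read 5′ to 3′ on the strand of the gene: unit pairs in DNAJB1, the 3-unit element in DNAJB6, the E2F site in DNAJC9 and the response element core in DNAJC10. A match describes these letters only, and binding was not measured.
DNAJB1, chr19:14518398-14518647, minus strand: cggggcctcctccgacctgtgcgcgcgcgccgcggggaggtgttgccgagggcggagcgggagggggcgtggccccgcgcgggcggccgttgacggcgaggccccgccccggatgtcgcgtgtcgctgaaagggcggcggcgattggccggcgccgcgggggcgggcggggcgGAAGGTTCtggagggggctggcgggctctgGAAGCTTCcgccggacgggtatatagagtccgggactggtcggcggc
DNAJB6, chr7:157336754-157337003, plus strand: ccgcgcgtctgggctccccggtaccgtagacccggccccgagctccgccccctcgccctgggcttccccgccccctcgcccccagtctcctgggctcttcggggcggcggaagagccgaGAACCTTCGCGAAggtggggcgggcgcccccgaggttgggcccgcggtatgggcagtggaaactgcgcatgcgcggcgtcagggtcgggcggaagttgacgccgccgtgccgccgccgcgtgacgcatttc
DNAJC9, chr10:73247256-73247505, minus strand: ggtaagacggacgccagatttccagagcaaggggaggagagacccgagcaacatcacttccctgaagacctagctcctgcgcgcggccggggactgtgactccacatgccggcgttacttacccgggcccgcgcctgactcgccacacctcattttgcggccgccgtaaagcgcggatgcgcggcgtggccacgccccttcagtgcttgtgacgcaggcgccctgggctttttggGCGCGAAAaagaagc
DNAJC10, chr2:182716007-182716256, plus strand: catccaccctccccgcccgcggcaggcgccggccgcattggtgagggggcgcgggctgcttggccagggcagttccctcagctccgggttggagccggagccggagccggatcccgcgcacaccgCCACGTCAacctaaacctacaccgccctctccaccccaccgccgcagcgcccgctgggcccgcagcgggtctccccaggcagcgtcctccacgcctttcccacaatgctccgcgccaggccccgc

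Of the cytosolic A and B class members, which act as general folding co-chaperones, 4 of 11 were measured, with a median log2 difference of 0.28. DNAJB1, the main heat-inducible HSP40, was at 84.4 with analogue 3 and 27.3 with DMSO. Its difference was 3.09-fold (log2 1.63), the 59th from the top of the 8523 measured genes. The other DNAJB1 probe set was at 42.9 and 13.1, a 3.27-fold difference, so both probe sets were more than 3-fold higher on the treated array. DNAJA1, a farnesylated partner of HSPA8, was at 903 and 670.4, or 1.35-fold higher, and its other probe set at 344.1 and 268.9, or 1.28-fold higher. DNAJA2, a related co-chaperone, was at 168.3 and 154.2 in its brightest probe set (log2 0.13) and differed by -0.11 in its other one, so it had no settled direction. DNAJB6, a suppressor of protein aggregation, was at 31.7 and 42.0 in its single-gene probe set, or 1.33-fold lower. Its direction is unsettled, because 2 brighter probe sets annotated to both DNAJB6 and TMEM135 were higher with analogue 3, at 121.3 and 103.0 (log2 0.24) and at 74.2 and 58.4 (log2 0.35). DNAJA4, DNAJB2, DNAJB4, DNAJB5, DNAJB7, DNAJB8 and DNAJB13 were under the floor on both arrays. DNAJB2, which is abundant in neurons, was at 3.39 with analogue 3 and 6.95 with DMSO, and only the DMSO value was near the floor. DNAJB4 was at 3.48 and 4.47, and DNAJB5 at 6.48 and 4.24.

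Members of the C class in the cytosol and nucleus were mixed, with 11 of 14 measured and a median of -0.05. DNAJC9, a co-chaperone that binds histones H3 and H4, was at 192.2 with analogue 3 and 87.1 with DMSO. This was a 2.21-fold difference (log2 1.14), the 241st from the top. A second DNAJC9 probe set was at 153.8 and 71.4, or 2.15-fold. A further probe set was far under the floor, at 0.338 and 0.346, as was its antisense transcript DNAJC9-AS1, at 0.219 and 0.217. Only DNAJB1 had a larger upward difference in the family. All probe sets that measured DNAJB1 and DNAJC9 end in _s_at or _x_at, types that can share sequence with other transcripts, so omitting these types leaves no measured value for either gene.

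Most of the remaining cytosolic and nuclear C members are tied to translation, splicing or membrane traffic. DNAJC2, which works on nascent chains at the ribosome, was at 123.7 and 98.8, or 1.25-fold higher. DNAJC21, needed for maturation of the large ribosomal subunit, was at 58.4 and 60.6, and DNAJC24, a factor of diphthamide synthesis, at 11.5 and 12.0. These last 2 genes differed by -0.05 and -0.06 on the log2 scale, smaller than the spread between probe sets of a gene. Other DNAJC21 probe sets at the floor differed by 0.12 and -0.35. Among splicing factors, DNAJC8 was at 151.9 and 137.1 in its brightest probe set (log2 0.15) and differed by -0.01 and -0.30 in its other probe sets at the floor, and DNAJC17 was at 15.6 and 20.9, or 1.35-fold lower. DNAJC7, which passes clients between HSP70 and HSP90, was at 164.4 and 203 in its brightest probe set (log2 -0.30) and differed by 0.17 in another, so its direction depended on the probe set. Vesicle factors were lower or near 0. DNAJC5, the cysteine string protein of secretory vesicles, was at 10.4 and 16.2, or 1.55-fold lower, and at 10.5 and 14.2 in its other probe set at the floor. A DNAJC5 probe set under the floor was at 4.24 and 3.48, higher with analogue 3. DNAJC6, the auxilin that uncoats clathrin vesicles, was at 17.0 and 25.8, or 1.52-fold lower. DNAJC13, an endosomal sorting factor, was at 48.3 and 49.1 (log2 -0.02). DNAJC27, a small GTPase with a J domain, reached the floor only with DMSO, at 6.71 and 8.13. DNAJC5B, DNAJC5G and DNAJC12 were under the floor on both arrays.

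The 4 ER members that lie in the lumen were all measured and all lower with analogue 3, with a median log2 difference of -0.63, or 1.55-fold. DNAJB9, the co-chaperone that holds the stress sensor IRE1 in check through HSPA5, was at 11.8 with analogue 3 and 39.6 with DMSO. The difference was 3.36-fold (log2 -1.75), the 66th from the bottom of the measured genes. Its other probe sets were at 4.44 and 14.2, and at 4.62 and 15.1. Without the floor those were 3.20- and 3.28-fold lower, close to the brightest probe set. The treated value was near or under the floor in each. With the treated value raised to the floor, the difference is only a bound, and DNAJB9 was then not called. The bound was log2 -0.31 (at least 1.24-fold lower) with a floor of log2 5. It was log2 -0.92 both without _s_at and _x_at probe sets and with the median of its probe sets.

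DNAJC10, a disulfide reductase that assists ER-associated degradation, was at 151.4 and 245.2, or 1.62-fold lower. Its other 3 probe sets at the floor differed by -0.99, -0.90 and -0.49 on the log2 scale, all lower on the treated array. DNAJC3, which limits signalling by the stress kinase PERK, was at 96.1 and 142.7, or 1.49-fold lower, and its other probe sets at the floor differed by -0.64 and -0.18. DNAJB11, which delivers clients to HSPA5, was at 150.6 and 186.0, or 1.24-fold lower, and had a single probe set. In each of these 3 genes the DMSO array held the higher value, by less than 2-fold.

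The 6 measured ER membrane members were also all lower, with a median of -0.29. DNAJC1, a transmembrane protein whose J domain faces the lumen, had the largest difference of them, at 45.0 and 69.6, or 1.54-fold, and differed by -0.70 and -0.75 in its other probe sets. DNAJB12 and DNAJB14, whose J domains face the cytosol and which act in degradation of membrane proteins, were at 15.5 and 18.5, and at 50.1 and 59.2. These were 1.19- and 1.18-fold lower, and their other probe sets at the floor had log2 differences of -0.51 for DNAJB12 and of -0.53 and -0.36 for DNAJB14. Under the floor, DNAJB12 had probe sets at 2.82 and 2.13 and at 4.13 and 4.16. DNAJC16 was at 20.4 and 25.7, DNAJC18 at 38.5 and 48.4, and DNAJC14 at 18.5 and 20.1. Their differences were 1.26-, 1.26- and 1.09-fold, all with the higher value on the DMSO array. Other probe sets of DNAJC16 and DNAJC18 at the floor differed by -0.46 and -0.35. Taking the luminal and membrane genes as 1 group, all 10 were below 0, with a median of -0.33, which ran from -0.44 to -0.29 over the other scalings, floors and choices of probe set.

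Mitochondrial members were close to 0, with 6 of 7 measured, a median of -0.06 and all 6 within 1.5-fold. DNAJC15 and DNAJC19, inner membrane partners of the protein import motor, were at 226.0 and 193.7 and at 109.8 and 114.4, with log2 differences of 0.22 and -0.06. DNAJA3, the matrix co-chaperone of HSPA9, was at 53.4 and 62.5, or 1.17-fold lower, and differed by -0.17 in its other probe set. DNAJC11, a partner of the cristae-organising complex, was at 17.3 and 18.0. DNAJC4 was at 15.1 and 19.0, or 1.26-fold lower, and DNAJC30 reached the floor only with analogue 3, at 8.12 and 7.31. DNAJC28 was under the floor on both arrays (2.80 and 2.29), as was DNAJC22 (5.76 and 4.97), a membrane protein placed in no compartment here.

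Set side by side, the cytosolic and nuclear median (-0.02 over 15 genes) lay 0.61 above the luminal ER median, and the mitochondrial median lay 0.57 above it. The cytosolic and nuclear median turned positive with a floor of log2 5, removal of a loess trend or quantile normalization, and the mitochondrial median without _s_at and _x_at probe sets. The luminal ER median stayed below 0 in every setting, from -0.68 to -0.44. Each group holds few genes from 1 pair of arrays, and the difference between compartments was not tested.

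**Figure D2:**
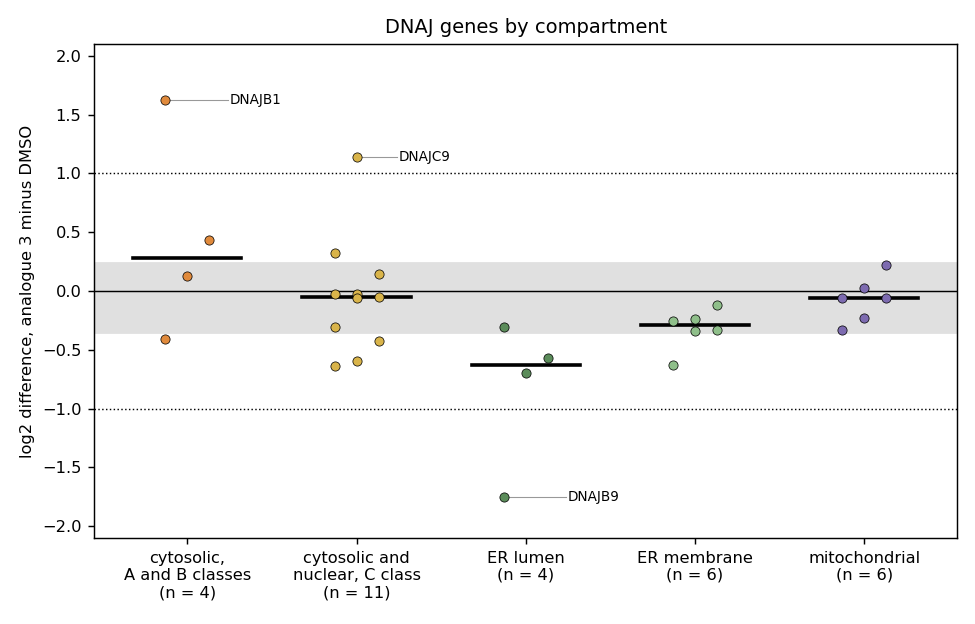
Log2 difference (analogue 3 minus DMSO) of each measured DNAJ gene in its brightest probe set, by compartment; 1 point is 1 gene, thick bars are group medians, the grey band spans the quartiles of all measured genes (-0.36 to 0.24) and dotted lines mark 2-fold. All 4 luminal and 6 membrane ER genes lie below 0, and the 6 mitochondrial genes lie between -0.33 and 0.22.

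Different probe sets of a gene give the only measure of technical error on these arrays. Of 18 members with at least 2 probe sets at the floor on both arrays, 14 had the same sign in all of them. The exceptions were DNAJA2, DNAJC7, DNAJC8 and DNAJC21. The SD of 1 probe set was 0.15 on the log2 scale in the family and 0.23 over 2874 genes of the array. The differences of DNAJB1 and DNAJC9 exceed both SDs several-fold. So does that of DNAJB9 in its brightest probe set, but its other probe sets did not reach the floor with analogue 3. DNAJB9 is therefore not among the 18 members, and its bound with a floor of log2 5 was only log2 -0.31. Of the 6 mitochondrial differences, 3 lie within the family's SD, as does that of the ER member DNAJC14 (log2 -0.12). The differences of the ER members DNAJB14 (-0.24) and DNAJB12 (-0.25) are close in size to the SD over all genes. Error between cultures, RNA samples and hybridisations is not part of either SD.

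**Figure D3:**
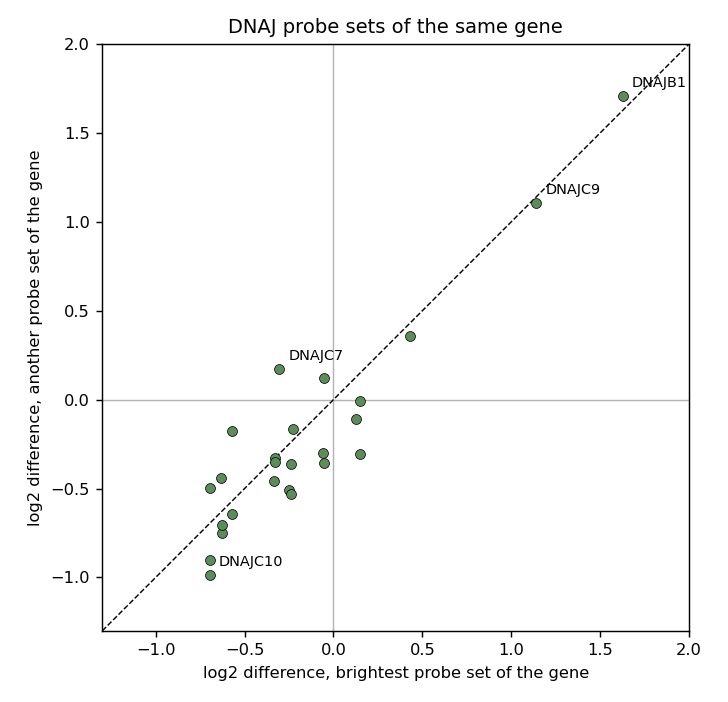
Log2 difference in another probe set of a DNAJ gene (vertical) against that in its brightest probe set (horizontal), for 25 probe sets of 18 genes at the floor on both arrays; the dashed line marks equality. DNAJB1 and DNAJC9 lie near the line at the upper right, and DNAJC7 lies across 0.

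The HSP70 partners of each compartment were read from lists that hold no DNAJ gene. Cytosolic HSP70s, their nucleotide exchange factors, ST13 and STUB1 had a median log2 difference of 0.65. Of 13 measured genes, 12 lay above 0 and 5 were at least 2-fold higher. HSPA4 lay at this median, and its other probe sets at the floor differed by -0.33 and 0.68. HSPH1, an exchange factor, was at 277.7 and 105.6, or 2.63-fold higher, and the HSP70 HSPA2 at 31.3 and 12.3, or 2.55-fold. BAG2 and HSPA4L, also exchange factors, were 2.18- and 2.17-fold higher. HSPA8, HSPA1A and HSPA1B share their probe sets with other genes and are not given. HSPA6 (2.8 and 1.4) and HSPA1L (2.17 and 2.16) were under the floor. Other heat shock factor targets had a median of 0.78, with 9 of 10 above 0 and 4 at least 2-fold higher. The HSP90 co-chaperones FKBP4, CHORDC1 and STIP1 were 2.94-, 2.72- and 2.02-fold higher, and CACYBP was 2.01-fold higher. Without _s_at and _x_at probe sets, 2 of 7 genes of the former list and 0 of 4 of the latter were 2-fold higher, with medians of 0.44 and 0.49. With the median of probe sets, the former list's median was 0.33, and with a floor of log2 5, 3 of its 9 genes were 2-fold higher. After loess or quantile normalization, 2 of 10 genes of the latter were 2-fold higher.

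ER partners lay on the other side of 0, with a median of -0.26 over 21 genes. Of these, 19 were below 0, against 55.5% of all measured genes. At least 2-fold lower were 4, against 3.92% of all measured genes, and none was 2-fold higher. HSPA5, the HSP70 that the luminal DNAJ proteins serve, was at 567.1 with analogue 3 and 1449 with DMSO, or 2.56-fold lower, and differed by -1.83 in its other probe set. HERPUD1, a factor of ER-associated degradation, was 3.28-fold lower, ERN1, which encodes IRE1, 3.15-fold, and the stress factor XBP1 2.23-fold. For ERN1 the treated value lay near the floor, at 11.1 against 35.0 with DMSO. SEL1L and EDEM1 of the degradation pathway, the HSP70 HSPA13, the HSPA5 exchange factor SIL1 and the disulfide isomerase PDIA3 were 1.44- to 1.70-fold lower. These values are from the brightest probe sets. Other probe sets at the floor differed by log2 -0.47 for SEL1L, -0.08 for PDIA3 and 0.09 for HSPA13, so HSPA13 had no settled direction. In their brightest probe sets the other 12 genes lay within 1.23-fold of the control in either direction. Among them were the sensor ATF6 (log2 -0.30) and the chaperones CANX (-0.23), HSP90B1 (-0.21) and CALR (0.24). Another ATF6 probe set at the floor differed by -0.96. The list median ran from -0.30 to -0.17 over the alternatives. After median centring 17 of 21 genes lay below 0, and with the median of probe sets 20 of 21. The count at least 2-fold lower was 3 with a floor of log2 5, with the median of probe sets and without _s_at and _x_at probe sets.

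Mitochondrial partners were split, with 7 of 12 above 0 and a median of 0.19, which was 0.10 with no floor and -0.04 without _s_at and _x_at probe sets. HSPA9 was at 725.5 and 1151, or 1.59-fold lower, and its exchange factor GRPEL2 and the motor anchor TIMM44 were 1.74- and 1.68-fold lower. The import factor TIMM21 was 2.66-fold higher and the chaperonin partner HSPE1 2.23-fold. Among J-domain genes with other names, HSCB, SEC63 and GAK differed by -0.25, -0.40 and -0.18 on the log2 scale. SEC63 acts at the ER translocon and was at 112.4 and 147.9.

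Genes that share histone handling with DNAJC9 were all above 0, with 11 measured, a median of 0.56 and 3 at least 2-fold higher. With a floor of log2 5, 1 of 9 was 2-fold higher, and with a floor of log2 1 or none, 5 of 12, with a median of 0.89. The chromatin assembly subunits CHAF1A and CHAF1B were 3.00- and 2.77-fold higher, the helicase subunit MCM2, which also binds histones, 2.96-fold, and the histone chaperone NASP 1.97-fold. DNAJC9, at 2.21-fold, lay within the range of these genes.

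**Figure D4:**
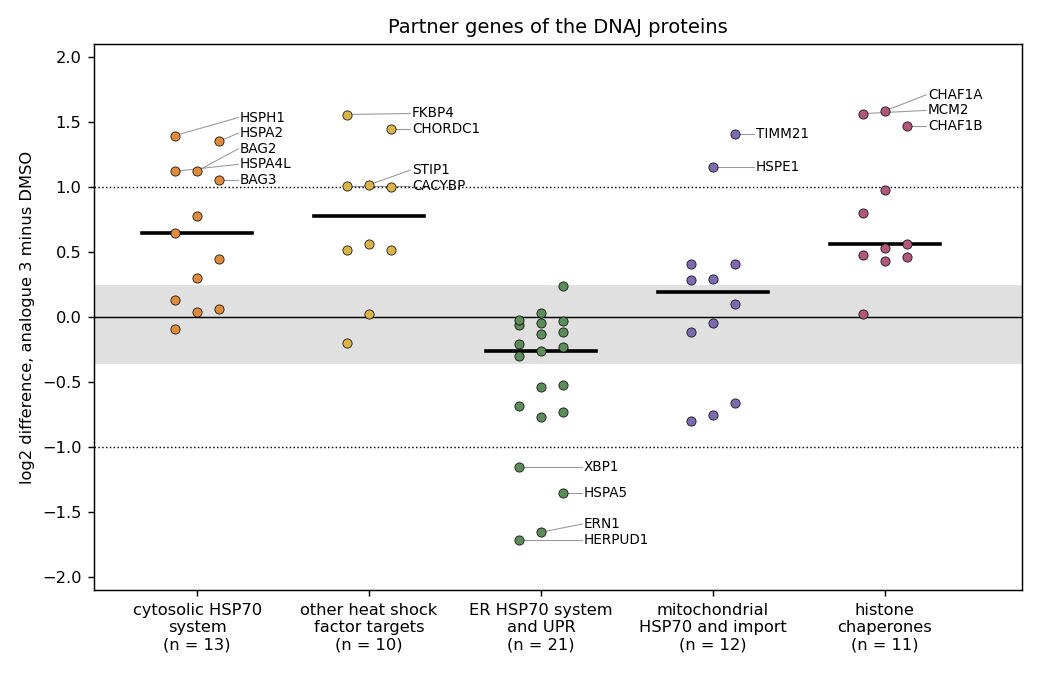
Log2 difference (analogue 3 minus DMSO) of each measured gene of 5 partner lists; 1 point is 1 gene, thick bars are medians, the grey band spans the quartiles of all measured genes and dotted lines mark 2-fold. Medians run from 0.78 for other heat shock factor targets to -0.26 for the ER list (UPR, unfolded protein response).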

How the data were processed

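Biotin-labelled cRNA of 2 cultures was hybridised to Affymetrix U133 Plus 2.0 arrays. The authors deposited 1 linear intensity per probe set and array (54675 probe sets). GCRMA is named in the submitters' processing notes, and its version is not given in the sources used here. Both deposited columns have a median of 1, which fits division of each array by its median, a step that is not given in the sources used here. Depth does not apply to arrays, and their number limits the precision.

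Genes were named from GEO's platform annotation (41097 probe sets with 1 symbol, 1801 with several, 11777 unnamed). All 111 DNAJ probe sets matched RefSeq by gene number. Each gene was represented by the probe set of highest mean log2 intensity. Log2 values were raised to a floor of log2 3 and analogue 3 minus DMSO was taken, with no test. Calls were differences of at least 2-fold. A floor of log2 5, used earlier on these data, was an alternative, since it leaves 20 members measured. Others were floors of log2 1 and none, median centring, loess (span 0.3), quantile normalization, the median of probe sets, omission of _s_at and _x_at probe sets, and thresholds of 1.5- and 3-fold. The steps were tested on simulated data. Python 3.11.15 and statsmodels 0.14.6 were used. All measured members were named, with up to 4 genes of largest difference per partner list; others were singled out after their values were seen. Members, compartments, lists and motifs were chosen with earlier results of these data known.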

Additional observations from a re-analysis of the deposited data

How the results depend on the processing

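With 1 array per group, no replicate could be left out. No paired analysis was possible because each group holds 1 sample. The 2 genes at least 2-fold higher, DNAJB1 and DNAJC9, were the same in 7 of 8 alternatives of floor, scaling and probe set. The count was 0 without _s_at and _x_at probe sets, where neither gene had a measured value, and 1 (DNAJB1) at 3-fold, where 72 of 8523 genes were higher. The count at least 2-fold lower was 1 in the main setting. It was 0 with a floor of log2 5, with the median of probe sets and without _s_at and _x_at probe sets. In those settings 135 of 5050, 305 of 8530 and 247 of 5934 measured genes were lower. The count was 2 (DNAJB9 and DNAJB2) of 36 members with a floor of log2 1, and the same 2 of 43 with no floor. There 586 of 11158 and 724 of 19775 genes were lower. At 1.5-fold the count was 5 (DNAJB9, DNAJC1, DNAJC5, DNAJC6 and DNAJC10), where 12.9% of all genes were lower. For DNAJB9, the 3 alternatives without a call raise its treated value to the floor, so they give bounds. The compartment medians ranged from -0.06 to 0.14 (cytosolic and nuclear), -0.68 to -0.44 (luminal ER) and -0.12 to 0.02 (mitochondrial). Of 227 single-gene values under these alternatives, 218 moved by less than the SD of 1 probe set over all genes (0.23) and 11 changed sign, in 6 genes, none of which was called. The median of all genes stayed between -0.07 and -0.01 in all settings.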

Other observations

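Probe sets that also carry another gene were left out of the comparison. A probe set annotated to DNAJC25 and its readthrough gene was at 20.3 with analogue 3 and 23.3 with DMSO (log2 -0.20). Transcripts antisense to or divergent from DNAJB8, DNAJC3, DNAJC9 and DNAJC27 were under the floor on both arrays, the highest being a DNAJC3-DT probe set at 1.01 and 1.55.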
